A study of Mus musculus with 8 samples.

Results

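The genes described here are 3 tissue inhibitors of metalloproteinases (Timp1, Timp2, Timp3) and 7 matrix metalloproteinases (Mmp2, Mmp3, Mmp7, Mmp9, Mmp13, Mmp14, Mmp23), 10 of the 30395 gene identifiers counted in each library. They were taken by name after the Ensembl identifiers had been matched to mouse symbols. They were measured by RNA sequencing in 2 mesenchymal populations sorted from mouse liver, Gli1+ peribiliary mesenchymal cells and stellate cells, with 2 libraries in each of 4 groups. Every group came from mice aged 8 weeks on a mixed C57BL/6 and SWR/J background that carried Gli1:CreER+/- and Ai9+/-: a Cre recombinase driven by Gli1 with a red fluorescent reporter, present in the mice that gave the stellate cells too. The uninjured groups are Gli1+ and stellate cells with no operation named in the labels, and the injured groups are the same populations 5 days after bile duct ligation (BDL), a surgical obstruction of bile outflow. The sources used here do not give the gates of the sort. Nor do the labels say whether replicates 1 and 2 are separate animals, so a p-value reflects only how these libraries vary, which may be technical variation.

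Matrix metalloproteinases are zinc enzymes that cut collagens, elastin, proteoglycans and many cell surface proteins. Most are made as inactive proenzymes, and the TIMPs bind the active enzymes and block them. In injured liver, mesenchymal cells are known as a source of both, and a rise of TIMPs relative to collagen-cutting enzymes is a textbook feature of fibrosis. RNA levels say nothing of enzyme activity, which depends on activation of the proenzyme and on binding of the inhibitor.

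Levels are given as CPM, reads scaled to a library total of 1000000, and comparisons between genes as CPM per kb of exon sequence. The libraries held 11261775 to 19180370 reads, so that 3 reads were worth 0.156 to 0.266 CPM. The populations matched their labels by Gli1, which the labels name, and by Lrat, an enzyme of retinoid storage in stellate cells, which they do not. Gli1 was at 2.39 to 14.9 CPM in the Gli1+ libraries and at 0 to 0.0584 in the stellate libraries. Lrat was at 1832 to 2784 CPM in stellate and 5.16 to 35.9 in Gli1+ libraries. The Gli1+ libraries also held epithelial and mesothelial transcripts. The summed level of 12 cholangiocyte markers (bile duct epithelium) was 4358 and 3266 CPM in uninjured Gli1+ libraries and 16437 and 7937 after BDL. The summed level of 10 mesothelial markers was 3924 and 10198 CPM in uninjured Gli1+ libraries and 6068 and 3768 after BDL. In stellate libraries these sums were 7.03 and 3.96 CPM (cholangiocyte) and 4.46 and 10.1 CPM (mesothelial) before BDL. Hepatocyte markers (9 genes) summed to 1252 and 235 CPM in uninjured Gli1+ libraries and to 2668 and 13996 after BDL. In stellate libraries they summed to 237 and 52.9 CPM before and 1569 and 1377 after BDL. Macrophage markers (12 genes) summed to 12464 CPM in uninjured stellate replicate 1 and 69.4 in replicate 2, against 1315 to 3880.3 in the other 6 libraries. In sorted bulk samples, fewer cells of a type and less RNA per cell cannot be told apart.

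In uninjured liver all 3 inhibitors and 3 of the 7 proteases (Mmp3, Mmp7, Mmp23) were higher in Gli1+ than in stellate cells. Over all 16446 genes tested, 8.06% were called higher there by limma-trend with Benjamini-Hochberg (BH) adjustment, at an adjusted p under 0.05, the threshold used throughout. The members were not drawn from all genes at random, and Mmp3 and Mmp7 passed the filter on low values only through the Gli1+ libraries, where they are high, so the count of 6 of 10 is a description. Mmp9 failed that filter. None of the 10 was lower, against 3.02% of all genes tested. After BDL 2 of 10, Timp3 and Mmp7, were higher in Gli1+ cells, against 4.44% of all genes tested, and 0 were lower, against 2.36%. The median difference of the 10 genes, as log2 of (CPM + 1), was 1.80 in uninjured liver and 0.65 after BDL, beside 0.32 and 0.23 over all genes tested. By level, 8 of the 10 genes had both Gli1+ libraries above both stellate libraries in uninjured liver and 6 of 10 after BDL, where 31.1% and 34.8% of all genes tested did so. In 0 of 10 were both Gli1+ libraries below both stellate libraries, where 14.6% and 19% of all genes tested were. Scaling moves these values: with TMM factors the medians over all genes became 0.14 and 0.09, and no member's difference between populations changed sign under any scaling tried.

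**Figure D1:**
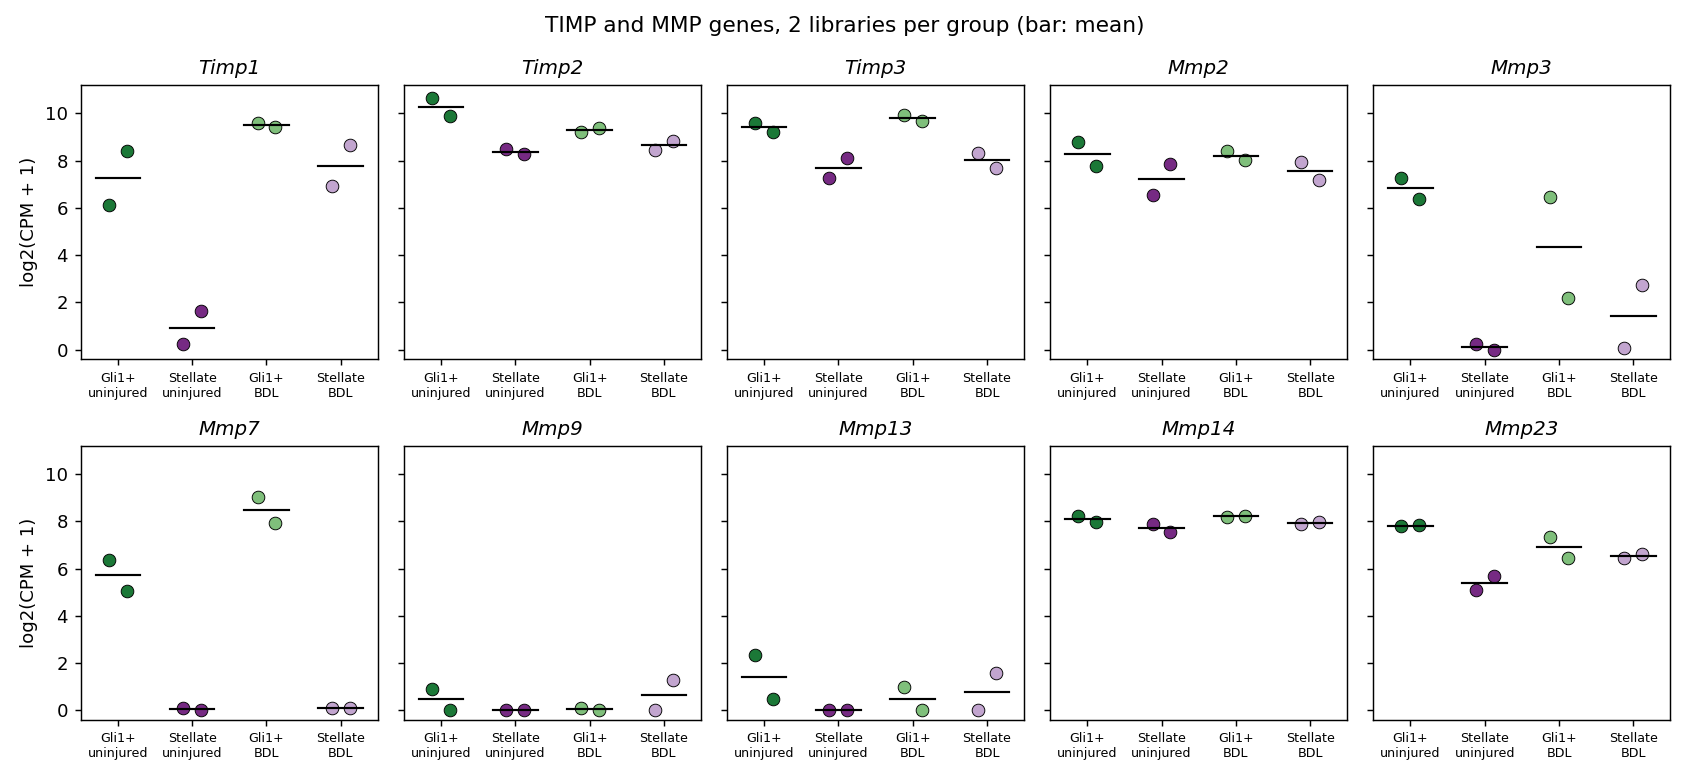
Level of each of the 10 genes, 1 panel per gene, as log2(CPM + 1) on the vertical axis for the 4 groups, with 1 point per library and a bar at the mean of the 2 points. Timp1 is lowest in the uninjured stellate libraries (0.183 and 2.09 CPM) and above 100 CPM in both stellate libraries after BDL, and Mmp7 is high in the 4 Gli1+ libraries and below 0.1 CPM in the 4 stellate libraries.

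Timp1 encodes a soluble, injury-inducible inhibitor and lies on chromosome X at 20870166 to 20874735 on the plus strand (GRCm38, also called mm10), inside Syn1 on the opposite strand with which it shares no exon sequence. Its level was 69.3 and 340 CPM in the uninjured Gli1+ libraries, 0.183 and 2.09 in uninjured stellate libraries, 779 and 689 in Gli1+ libraries after BDL, and 122 and 397 in stellate libraries after BDL. The uninjured stellate libraries were the lowest, with 3 and 40 reads, and overlapped with no other group. Stellate cells therefore held the gene at a level of 1.13 ± 1.34 CPM (SD, n = 2) before and 260 ± 195 after BDL, a log2 fold change of 6.86 ± 0.82 (SE; 95% interval 4.99 to 8.72; limma-trend, BH-adjusted p = 0.0236). It was the 1 member of 10 that was called with BDL in stellate cells, where 0.225% of all genes tested were called. This call was held without either uninjured stellate library, but the BH-adjusted p was 0.161 and 0.315 by limma-trend without stellate BDL replicate 1 or 2, 0.0522 and 0.0542 without uninjured Gli1+ replicate 1 or 2, and 0.121 and 0.124 without Gli1+ BDL replicate 1 or 2. The call was also lost with edgeR on whole reads (BH-adjusted p = 0.0700), with limma-voom (0.305), with no filter (0.0941) and with only the groups compared in the fit (0.221). Markers of other cell types were also higher in the stellate libraries after BDL. The cholangiocyte sum was 182 and 759 CPM, of which Spp1 (osteopontin) was 177 and 743, and the mesothelial sum 48.0 and 78.4. The sum of 9 hepatocyte markers was 1569 and 1377, from 237 and 52.9 before. The sum of 12 portal fibroblast markers was 90.5 and 151, from 29.2 and 38.9. That of 10 endothelial markers was 3825 and 2922, from 2033 and 2440. In the order given, 1 of 12, 2 of 10 (Krt8, Krt18), 0 of 9, 1 of 12 (Dpt) and 0 of 10 genes tested were called higher. Of the 10 mesothelial genes, 3 (Krt8, Krt18, Muc16) had both injured libraries above both uninjured ones and 7 overlapped. Both injured libraries were also above both uninjured ones for 6 of 12 cholangiocyte and 7 of 9 hepatocyte genes. The same was so for 8 of 12 portal fibroblast and 8 of 10 endothelial genes, against 27.4% of all genes tested. The part of these cell types in the Timp1 change was not tested.

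In Gli1+ cells Timp1 stood at 205 ± 191 CPM before and 734 ± 63.9 after BDL (SD, n = 2 each). Both injured libraries were above both uninjured ones, but the difference of 2.24 ± 0.82 on the log2 scale had a BH-adjusted p of 0.333 by limma-trend and was not called. The mesothelial sum was 3924 and 10198 CPM in the uninjured and 6068 and 3768 in the injured Gli1+ libraries. The ratio of Timp1 to Msln, a mesothelial marker, was 0.0903 and 0.134 before and 0.625 and 0.901 after BDL. The part of mesothelial RNA in the Timp1 level of Gli1+ cells was not tested. Between populations, Timp1 was higher in Gli1+ cells in uninjured liver by 6.34 ± 0.82 on the log2 scale (limma-trend, BH-adjusted p = 0.00223; 0.145 with limma-voom). After BDL the difference was 1.73 ± 0.82 (95% interval -0.14 to 3.60, BH-adjusted p = 0.300). The difference between the BDL responses themselves, Gli1+ minus stellate, was -4.61 ± 1.16 (95% interval -7.25 to -1.97), with a BH-adjusted p of 0.403 by limma-trend and 0.00226 by DESeq2 on whole reads.

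Timp2 inhibits soluble and membrane-type enzymes and also bridges Mmp14 to proMmp2 when the latter is activated at the cell surface; the gene lies on chromosome 11 at 118301069 to 118355740 on the minus strand. It was at 1585 and 931 CPM in uninjured Gli1+ libraries, 356 and 308 in uninjured stellate libraries, 589 and 672 in Gli1+ libraries after BDL, and 352 and 453 in stellate libraries after BDL. The uninjured Gli1+ libraries were the highest, and the stellate groups overlapped with each other. In uninjured liver Timp2 was higher in Gli1+ cells by 1.87 ± 0.34 on the log2 scale (limma-trend, BH-adjusted p = 0.00997); without uninjured Gli1+ replicate 1 the difference was 1.49 (BH-adjusted p = 0.0571), and with only the groups compared in the fit the BH-adjusted p was 0.0644. After BDL the difference was 0.65 ± 0.34 (95% interval -0.12 to 1.43) and was not called. Timp2 was the inhibitor whose Gli1+ libraries were lower after BDL, by -0.95 ± 0.34 on the log2 scale, which was not called (limma-trend, BH-adjusted p = 0.318). In stellate cells the difference was 0.27 (95% interval -0.50 to 1.04).

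Timp3 is the inhibitor that stays bound to the matrix and also blocks ADAM sheddases; it lies on chromosome 10 at 86300372 to 86349506 on the plus strand, inside Syn3 on the opposite strand, with which it shares exon sequence. Syn3 reached at most 5.89 CPM in any library. Timp3 was at 763 and 597 CPM in uninjured Gli1+ libraries, 151 and 273 in uninjured stellate libraries, 973 and 817 in Gli1+ libraries after BDL, and 322 and 203 in stellate libraries after BDL. All 4 Gli1+ libraries were above all 4 stellate libraries. The difference between populations was 1.73 ± 0.38 on the log2 scale in uninjured liver (limma-trend, BH-adjusted p = 0.0230) and 1.80 ± 0.38 after BDL (BH-adjusted p = 0.0264). The BDL responses were 0.40 in Gli1+ and 0.33 in stellate cells, and their difference was 0.07, none of them called.

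Both Timp3 calls were close to the threshold. In uninjured liver the limma-trend BH-adjusted p was 0.128 and 0.0655 without uninjured Gli1+ replicate 1 or 2 and 0.0729 without uninjured stellate replicate 1. It was 0.0504 with TMM scaling, 0.0925 with no filter, 0.0786 with only the groups compared and 0.101 with edgeR on whole reads. After BDL it was 0.188 and 0.112 without Gli1+ BDL replicate 1 or 2, 0.0970 and 0.219 without stellate BDL replicate 1 or 2, and 0.113 with edgeR.

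Mmp14, or MT1-MMP, is the membrane-anchored collagenase that activates proMmp2, and Mmp2, or gelatinase A, cuts denatured and basement membrane collagen. Mmp14 lies on chromosome 14 at 54431612 to 54445364 (plus strand) and Mmp2 on chromosome 8 at 92827291 to 92853420 (plus strand). These were the 2 proteases of at least 91.2 CPM in every library. Mmp14 was at 300.0 and 252 CPM in uninjured Gli1+ libraries, 237 and 187 in uninjured stellate libraries, 292 and 300.4 in Gli1+ libraries after BDL, and 236 and 252 in stellate libraries after BDL. Mmp2 was at 444 and 218 CPM in uninjured Gli1+ libraries, 91.2 and 233 in uninjured stellate libraries, 333 and 257 in Gli1+ libraries after BDL, and 242 and 146 in stellate libraries after BDL. Replicates of Mmp2 differed as much as the groups did, and in uninjured liver the populations overlapped.

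Neither gene was called in any of the 5 comparisons. For Mmp14 the difference between populations was 0.38 (95% interval -0.26 to 1.02) in uninjured liver and 0.28 (-0.36 to 0.92) after BDL, and the BDL responses were 0.11 (-0.54 to 0.75) in Gli1+ and 0.21 (-0.43 to 0.85) in stellate cells, all on the log2 scale. For Mmp2 the difference between populations was 1.09 (-0.11 to 2.28) in uninjured liver and 0.64 (-0.56 to 1.83) after BDL, and the BDL responses were -0.09 (-1.28 to 1.11) and 0.36 (-0.83 to 1.56). The Mmp14 intervals leave room for a BDL change of up to 0.75 on the log2 scale in Gli1+ and 0.85 in stellate cells. Between populations they leave room for a difference of up to 1.02. The Mmp2 intervals leave room for larger ones.

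Mmp23 is a membrane-anchored member of the family that is released when its linker is cut; the gene lies on chromosome 4 at 155650655 to 155653384 on the minus strand. It was at 221 and 228 CPM in uninjured Gli1+ libraries, 32.8 and 50.3 in uninjured stellate libraries, 161 and 86.6 in Gli1+ libraries after BDL, and 86.5 and 96.5 in stellate libraries after BDL. The uninjured populations were far apart and the injured ones overlapped. Mmp23 was higher in uninjured Gli1+ than stellate cells by 2.43 ± 0.39 on the log2 scale (limma-trend, BH-adjusted p = 0.00586), a call held in each of the 18 alternative settings. After BDL the difference was 0.37 (95% interval -0.53 to 1.26). It was lower after BDL in Gli1+ cells by -0.92 ± 0.39 and higher in stellate cells by 1.15 ± 0.39, with no overlap of the libraries in either case. Neither response was called (limma-trend, BH-adjusted p = 0.428 and 0.283), nor was their difference of -2.07 ± 0.55 (BH-adjusted p = 0.421).

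Mmp3, Mmp7 and Mmp13 lie on chromosome 9 within the same cluster of metalloproteinase genes and on the same strand, and are described together with the sequence at their starts. Mmp3, or stromelysin 1, cuts proteoglycans and activates other proenzymes, Mmp7, or matrilysin, is a short family member made mainly by epithelia, and Mmp13, or collagenase 3, is a main collagenase of fibrillar collagen in rodents. Each has the sequence TGAGTCA, an element bound by AP-1 (Fos and Jun) factors, in the window from 250 bases before to 50 bases after its start. The windows, 5′ to 3′ on the plus strand with the TGAGTCA match (either strand) in capitals, are shown because these are the members that hold it (RefSeq, GRCm38.p6; chr9:7445572-7445871 for Mmp3, chr9:7691840-7692139 for Mmp7, chr9:7272264-7272563 for Mmp13).
Mmp3: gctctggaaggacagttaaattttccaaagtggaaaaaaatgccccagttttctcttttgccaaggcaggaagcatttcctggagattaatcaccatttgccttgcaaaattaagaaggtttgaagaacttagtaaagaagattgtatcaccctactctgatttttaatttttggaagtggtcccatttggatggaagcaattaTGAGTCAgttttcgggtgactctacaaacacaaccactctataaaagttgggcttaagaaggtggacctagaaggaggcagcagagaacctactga
Mmp7: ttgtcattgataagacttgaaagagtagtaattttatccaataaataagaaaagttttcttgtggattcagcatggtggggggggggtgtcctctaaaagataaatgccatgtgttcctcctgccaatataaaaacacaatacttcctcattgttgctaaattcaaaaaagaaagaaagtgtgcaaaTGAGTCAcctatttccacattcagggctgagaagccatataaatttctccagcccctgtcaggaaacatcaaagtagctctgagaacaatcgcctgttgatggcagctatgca
Mmp13: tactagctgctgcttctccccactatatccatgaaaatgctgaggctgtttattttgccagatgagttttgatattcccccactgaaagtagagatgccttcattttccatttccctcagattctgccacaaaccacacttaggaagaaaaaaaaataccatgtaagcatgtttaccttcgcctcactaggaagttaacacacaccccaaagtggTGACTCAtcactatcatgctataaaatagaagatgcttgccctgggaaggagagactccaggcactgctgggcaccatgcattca
The first base of the match lay 46 bases before the start of Mmp3, 63 before that of Mmp7 and 35 before that of Mmp13. TGAGTCA or its reverse complement TGACTCA was found in 3 of the 8 members that had a window, against 5.95% of 27025 genes with windows of the same length. Timp1, Timp2, Timp3, Mmp14 and Mmp23 had no match to this exact sequence in their windows. Similar sequences were not counted, and the Timp1 window holds TGAGTAA. A match is a description of these letters and says nothing of binding.

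Mmp7 (7692090 to 7699585) was at 81.3 and 32.2 CPM in uninjured Gli1+ libraries, 0.0612 and 0 in uninjured stellate libraries, 523 and 244 in Gli1+ libraries after BDL, and 0.0584 and 0.0849 in stellate libraries after BDL. All 4 stellate libraries were below the level of 3 reads, so that the gene was at the limit of detection in stellate cells with and without injury. Mmp7 was higher in Gli1+ cells by 5.67 ± 0.75 on the log2 scale in uninjured liver (limma-trend, BH-adjusted p = 0.00240) and by 8.39 ± 0.75 after BDL (BH-adjusted p = 0.000906), and both calls were held in each of the 18 alternative settings. As read ratios scaled to the library totals these were 1827-fold (95% counting interval 327 to 72199; 1480 reads against 1) and 5249-fold (1453 to 43347; 10574 reads against 2). Both injured Gli1+ libraries were above both uninjured ones, but the difference of 2.78 ± 0.75 was not called by limma-trend (95% interval 1.08 to 4.48, BH-adjusted p = 0.164). It was called by DESeq2 on whole reads (BH-adjusted p = 0.00472).

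Most epithelial markers were, like Mmp7, high in the Gli1+ and low in the stellate libraries. Epcam, a surface protein of bile duct epithelium, was at 211 and 172 CPM in uninjured Gli1+ libraries, 1077 and 459 after BDL, and 0.0521 to 1.10 in the 4 stellate libraries. Of the 12 cholangiocyte markers, 9 were called higher in Gli1+ cells in uninjured liver and all 12 after BDL, and with BDL in Gli1+ cells 0 were called while all 12 had a fold change above 0. The ratio of Mmp7 to Epcam CPM was 0.385 and 0.188 in uninjured Gli1+ libraries and 0.486 and 0.533 after BDL. The ratio to Krt19, a keratin of bile duct epithelium, was 0.0721 and 0.0174 before and 0.204 and 0.239 after BDL, and that to Spp1 was 0.0380 and 0.124 before and 0.0510 and 0.0473 after BDL. Mmp7 was thus higher after BDL relative to Epcam and Krt19 in both libraries, and not relative to Spp1. All 10 mesothelial markers were also called higher in Gli1+ cells in both states. The part of epithelial or mesothelial RNA in the Mmp7 level was not tested.

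**Figure D2:**
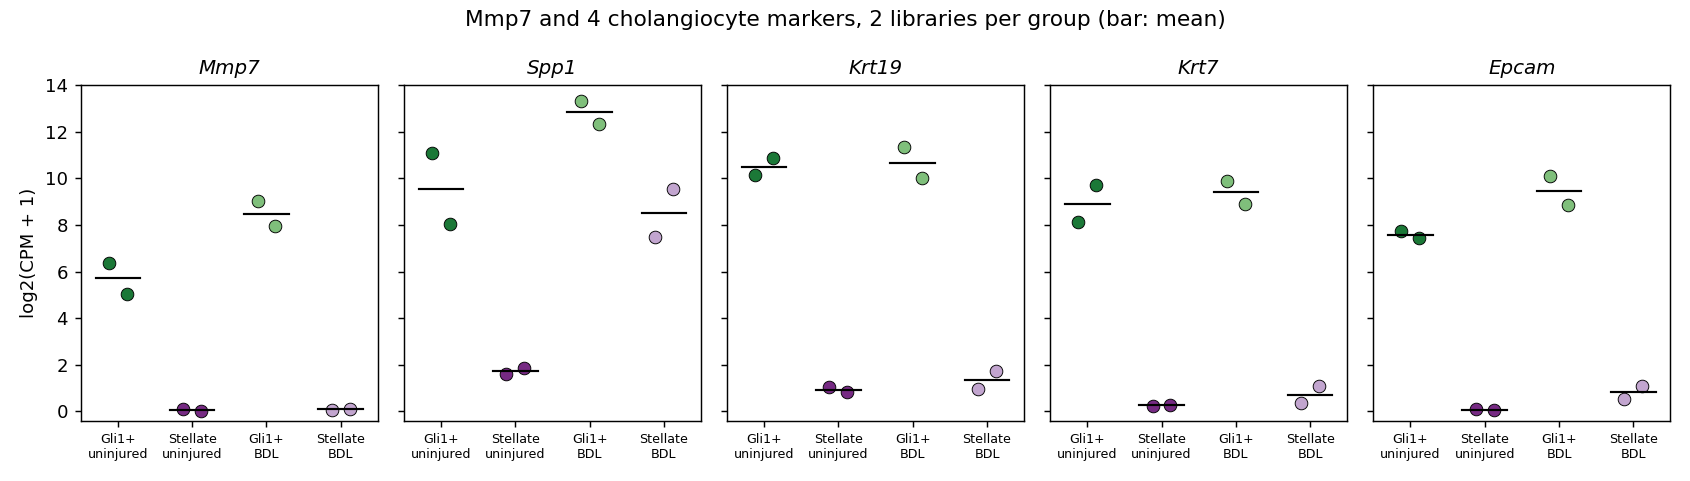
Mmp7 and the 4 cholangiocyte markers of highest mean CPM (Spp1, Krt19, Krt7, Epcam), 1 panel per gene, as log2(CPM + 1) on the vertical axis for the 4 groups, with 1 point per library and a bar at the mean of the 2 points. All 5 genes are high in the Gli1+ libraries, where Mmp7 runs from 32.2 to 523 CPM and Epcam from 172 to 1077 CPM; in stellate libraries Krt19, Krt7 and Epcam are at 2.29 CPM or less, while Spp1 is at 177 and 743 CPM after BDL.

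Mmp3 (7445822 to 7455975) was at 154 and 81.2 CPM in uninjured Gli1+ libraries, 0.183 and 0 in uninjured stellate libraries, 86.6 and 3.59 in Gli1+ libraries after BDL, and 0.0584 and 5.61 in stellate libraries after BDL. The uninjured populations did not overlap, whereas replicates 1 and 2 after BDL were far apart in both populations. In uninjured liver Mmp3 was higher in Gli1+ cells by 6.70 ± 1.40 on the log2 scale (limma-trend, BH-adjusted p = 0.0185), a read ratio of 1301-fold (95% counting interval 445 to 6312; 3162 reads against 3). The limma-trend BH-adjusted p was 0.117 and 0.0711 without uninjured Gli1+ replicate 1 or 2, 0.0528 with edgeR and 0.0855 with limma-voom on whole reads, and 0.0879 with no filter. After BDL the difference between populations was 2.92 ± 1.40 (95% interval -0.27 to 6.12) and was not called, nor was the BDL response of -2.49 ± 1.40 in Gli1+ cells or that of 1.28 in stellate cells.

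Mmp13 (7272514 to 7283331) and Mmp9, or gelatinase B (chromosome 2, 164940780 to 164955850, plus strand), had few reads. Mmp13 had 45 and 7 reads in uninjured Gli1+ libraries, 0 in both uninjured stellate libraries, 12 and 0 in Gli1+ libraries after BDL and 0 and 23 in stellate libraries after BDL; its highest level was 3.996 CPM. In uninjured liver its reads were at least 21.4-fold more frequent in Gli1+ cells, against a floor of 3 reads over the group, and the difference was not called (limma-trend, BH-adjusted p = 0.330). Mmp9 had 10 reads in uninjured Gli1+ replicate 1, 1 in Gli1+ BDL replicate 1, 17 in stellate BDL replicate 2 and 0 in the other 5 libraries. It had at least 1 CPM in a single library (1.44) and so was not tested. For these 2 collagen-cutting enzymes, each group that held reads held most of them in 1 library.

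None of the 10 genes was called with BDL in Gli1+ cells by limma-trend with BH adjustment, where 0% of the 16446 genes tested were called. At an unadjusted p under 0.05 there were 1812 genes, 4 of them members: Timp1 and Mmp7 higher, Timp2 and Mmp23 lower. On whole reads edgeR and limma-voom called 0 members, and DESeq2 called 412 genes with Mmp7 among them. Both injured libraries were above both uninjured ones for 3 members (Timp1, Timp3, Mmp7) and below them for 2 (Timp2, Mmp23), where 25.1% and 16.2% of all genes tested were above and below. In stellate cells the libraries were apart for 2 members, Timp1 and Mmp23, both higher, where 27.4% of all genes tested were higher and 12.2% lower. No member was called for the difference between the BDL responses, where 0.0122% of all genes tested were called. That difference shares its libraries with the comparisons above, and 1230 of the 16446 genes, 4 of them members (Timp1, Timp2, Mmp7, Mmp23), had an unadjusted p under 0.05.

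**Figure D3:**
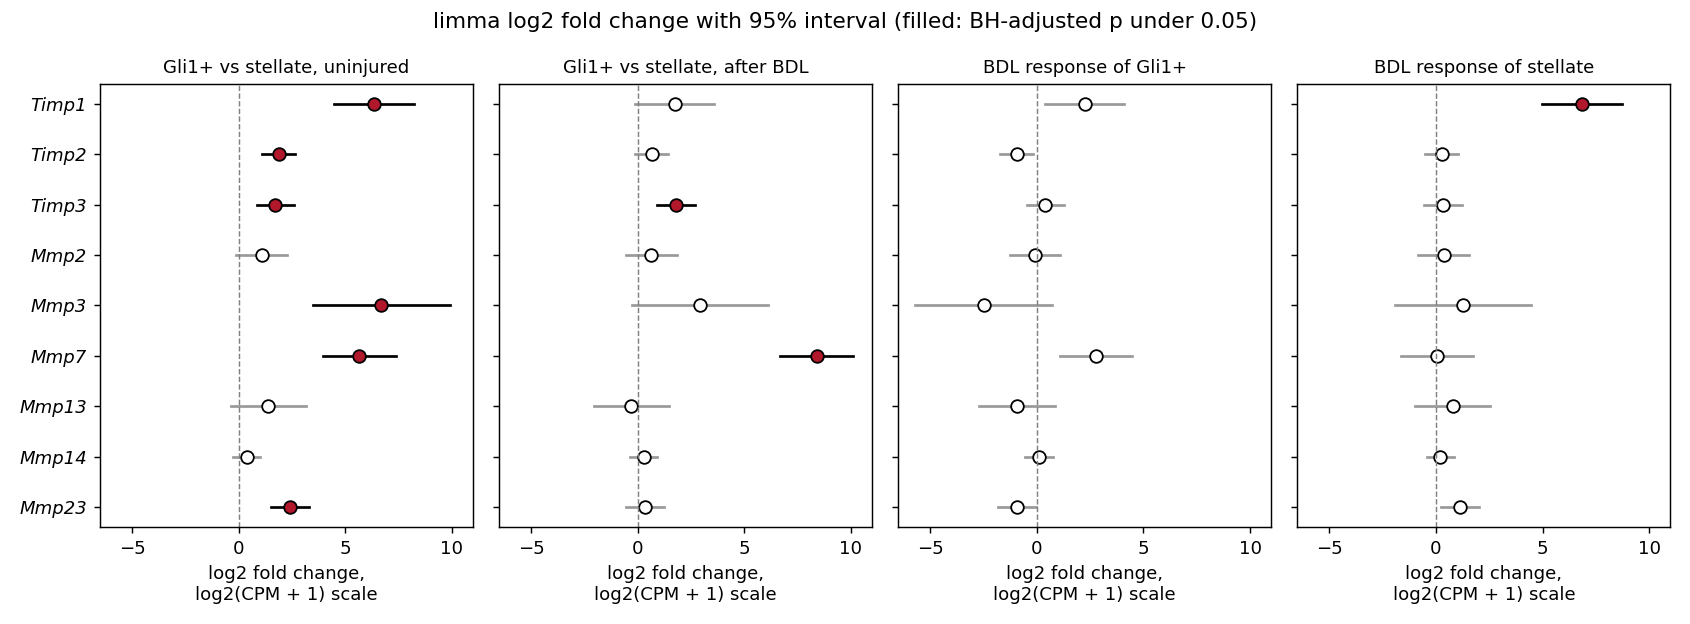
Log2 fold change on the log2(CPM + 1) scale (horizontal axis) for the 9 members tested, 1 panel for each of 4 comparisons, with the limma-trend estimate as a point, its 95% interval as a line, and filled points where the BH-adjusted p was under 0.05. The filled points are 6 in uninjured liver, 2 after BDL, 0 for BDL in Gli1+ cells and 1 (Timp1) for BDL in stellate cells; the intervals of Mmp14 are the narrowest and those of Mmp3 the widest.

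Ordered by CPM per kb, the inhibitor of highest group mean was Timp2 in both uninjured populations, at 323 ± 119 CPM per kb in Gli1+ and 85.2 ± 8.72 in stellate cells (SD, n = 2). After BDL it was Timp1 in both, at 826 ± 72.0 and 292 ± 219. In uninjured Gli1+ cells Timp1 was next at 230.3 ± 215, which overlapped with Timp2: in replicate 2 Timp1 already led, with 55.1% of the TIMP sum against 34.4% for Timp2. Mmp2 (98.1 ± 47.4), Mmp23 (95.8 ± 2.11) and Timp3 (83.5 ± 14.5) followed within each other's spread, and Mmp3 (65.4 ± 28.7), Mmp7 (53.1 ± 32.5) and Mmp14 (46.3 ± 5.74) were not apart beyond theirs. In injured Gli1+ cells the order was Timp1, Mmp7 (359 ± 185), Timp2 (162 ± 15.02), Timp3 (109.9 ± 13.6) and Mmp2 (87.6 ± 15.96). In stellate cells Mmp2 and Mmp14 were at 48.1 ± 29.7 and 35.6 ± 5.85 CPM per kb before and 57.6 ± 20.3 and 40.9 ± 1.85 after BDL. Mmp23 was at 17.8 ± 5.26 before and 39.1 ± 3.02 after BDL, then within the spread of both.

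The balance of inhibitor to protease RNA was taken as the summed CPM per kb of the 3 TIMPs over that of the 7 MMPs, per library and with no test, since it is a score over chosen genes. It was 1.31 and 2.49 in uninjured Gli1+ libraries, 1.36 and 0.942 in uninjured stellate libraries, 1.52 and 2.66 in Gli1+ libraries after BDL, and 1.80 and 4.49 in stellate libraries after BDL. Both injured stellate libraries were above both uninjured ones, a difference of 1.33 between group means on the log2 scale. The Gli1+ groups overlapped, with a difference of 0.15. The replicates of 3 groups were far apart, so that 1 library moves these values: leaving out each library in turn gave 0.67 to 1.99 for stellate cells and -0.31 to 0.61 for Gli1+ cells. Between populations the difference was 0.68 in uninjured liver (0.22 to 1.14) and -0.50 after BDL (-1.16 to 0.16).

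The sums behind the ratio moved differently in the 2 populations. The TIMP sum was 579 and 695 CPM per kb in uninjured and 1148 and 1048 in injured Gli1+ libraries, and 110.0 and 115 in uninjured and 267 and 589 in injured stellate libraries. The MMP sum was 440.0 and 279 in uninjured and 755 and 395 in injured Gli1+ libraries, and 80.9 and 122 in uninjured and 149 and 131 in injured stellate libraries. Timp1 made up 0.188% and 2.04% of the TIMP sum in uninjured stellate libraries and 51.4% and 76.0% after BDL. In Gli1+ libraries its share was 13.5% and 55.1% before and 76.4% and 74.0% after BDL. Mmp7 made up 17.3% and 10.8% of the MMP sum in uninjured and 64.9% and 58.0% in injured Gli1+ libraries, and at most 0.0707% in stellate libraries.

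**Figure D4:**
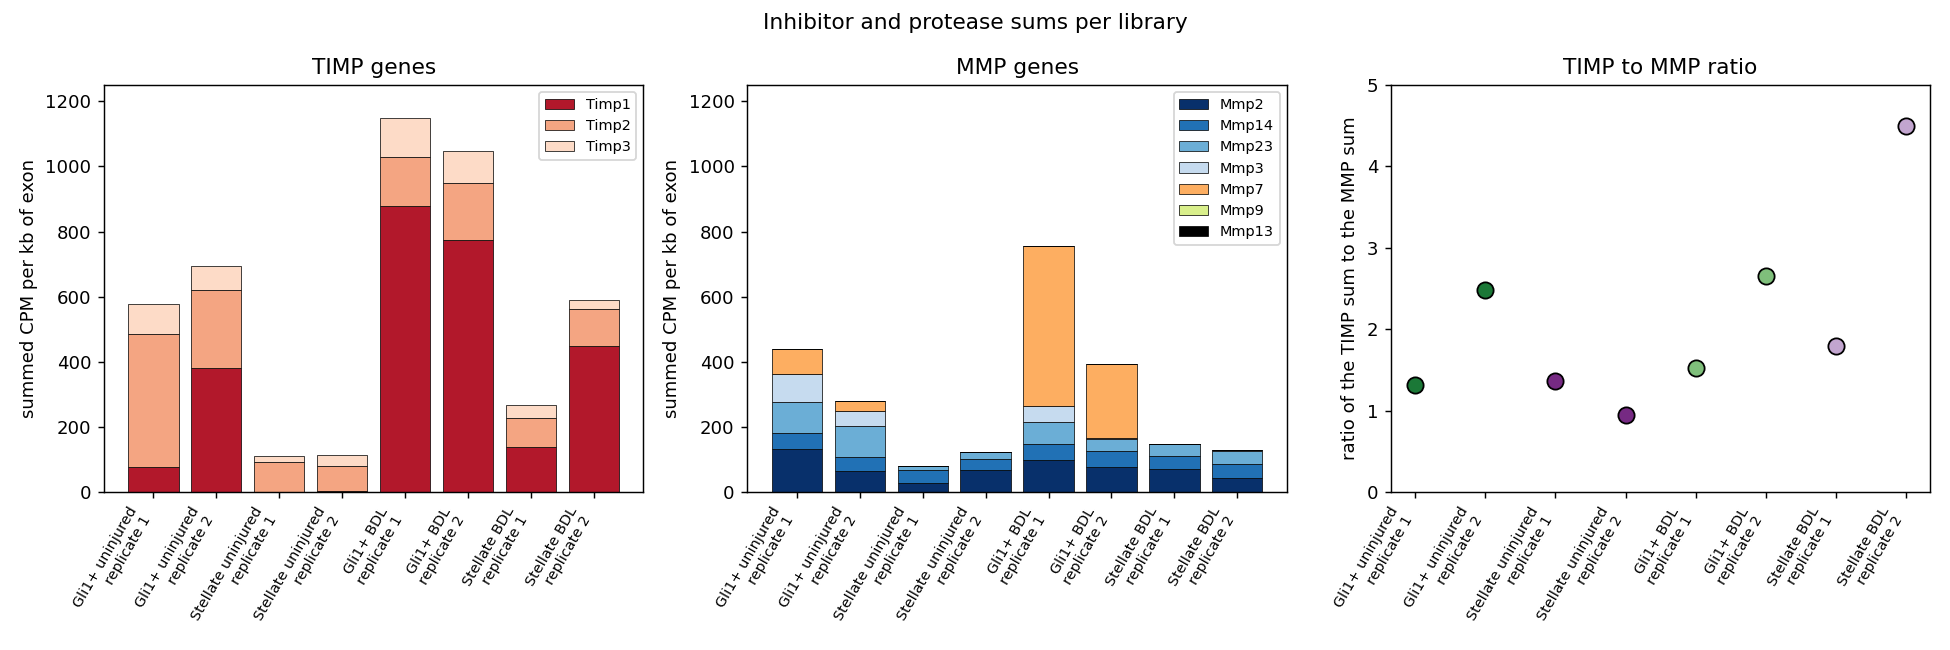
Stacked bars of CPM per kb of exon for the 3 TIMP genes (left) and the 7 MMP genes (middle), and the ratio of the TIMP to the MMP sum (right, linear axis from 0), 1 bar or point for each of the 8 libraries. Timp1 is the largest part of the TIMP bar in all 4 libraries after BDL (51.4% to 76.4%), Mmp7 is the largest part of the MMP bar in the injured Gli1+ libraries, and the ratio is highest in stellate BDL replicate 2 (4.49) and lowest in uninjured stellate replicate 2 (0.942).

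Leaving out either gene changed the balance. Without Timp1 the ratio was 1.36 and 0.923 in uninjured and 0.875 and 1.08 in injured stellate libraries, which overlap, and 1.14 and 1.12 in uninjured and 0.359 and 0.691 in injured Gli1+ libraries. Without Mmp7, which was high in the libraries that held epithelial markers, it was 1.59 and 2.79 in uninjured and 4.33 and 6.32 in injured Gli1+ libraries, which no longer overlap. In stellate libraries without Mmp7 it was 1.36, 0.942, 1.80 and 4.50, almost as before. The direction in Gli1+ cells thus depended on which gene was counted. These 2 settings were chosen after seeing the data.

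Of the family's other members, 16 of 17 listed genes were found and 9 could be tested. Of these 9, 1 gene, Mmp19, a protease of basement membrane components, was called, in uninjured liver, where 11.1% of all genes tested were called in either direction. It was at 29.7 and 17.6 CPM in uninjured Gli1+ libraries and at 0 in both uninjured stellate libraries, a difference of 4.58 ± 0.80 on the log2 scale (limma-trend, BH-adjusted p = 0.00877; 0.0532 without uninjured Gli1+ replicate 1 and 0.0518 with only the groups compared). After BDL it was at 28.7 and 14.7 CPM in Gli1+ and 15.4 and 5.78 in stellate libraries, at least 136-fold above uninjured stellate cells against a floor of 3 reads over the group. Mmp12, the macrophage elastase, was at 0.489 and 0.0521 CPM in uninjured and 18.8 and 91.4 in injured stellate libraries, a difference of 5.09 ± 1.17 that was not called (limma-trend, BH-adjusted p = 0.146). In Gli1+ cells Mmp12 had 3 reads over the group before and 670 after BDL. Both injured Gli1+ libraries were above both uninjured ones for it, and this response was not called either. Mmp11, or stromelysin 3, had the highest mean over the 8 libraries, at 3.11 to 69.6 CPM. After BDL its group means were below those of Mmp12, at 8.13 against 20.5 CPM in Gli1+ and 22.7 against 55.1 in stellate cells.

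Among genes of MMP activation, restraint and uptake, 18 were listed and 17 tested. In uninjured liver 5 were higher and 2 lower in Gli1+ cells (11.1% of all genes were called in either direction). The higher ones were Plat (tissue plasminogen activator), Plaur (urokinase receptor), Thbs1 (thrombospondin 1), Bsg (basigin, an inducer of MMPs) and Pcsk6 (a proprotein convertase). The lower ones were Thbs2 (thrombospondin 2, which aids MMP uptake) and Itgb3 (integrin beta 3). Plat was at 238 and 177 CPM in uninjured Gli1+ libraries, 0.0612 and 0.104 in uninjured stellate libraries, 195 and 138 in Gli1+ libraries after BDL, and 85.9 and 167 in stellate libraries after BDL. Plaur, in the same order of groups, was at 93.1 and 97.1, 0.122 and 0.0521, 153 and 80.6, and 36.1 and 39.3 CPM. Both genes, like Timp1, were lowest in the uninjured stellate libraries.

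With BDL in stellate cells Plat was higher by 6.80 ± 0.45 on the log2 scale (limma-trend, BH-adjusted p = 0.00148; 0.0595 without stellate BDL replicate 2, 0.221 with only the groups compared and 0.202 with limma-voom) and Plaur by 5.15 ± 0.50 (BH-adjusted p = 0.00917). For Plaur the limma-trend BH-adjusted p was 0.163 and 0.268 without stellate BDL replicate 1 or 2, and 0.0522 to 0.0656 without any 1 of the 4 Gli1+ libraries; it was 0.221 with only the groups compared and 0.202 with limma-voom. In uninjured liver Plat was higher in Gli1+ cells by 7.57 ± 0.45 (BH-adjusted p = 0.000126), Plaur by 6.47 ± 0.50 (0.000247) and Thbs1 by 2.94 ± 0.40 (0.00287), calls held in each of the 18 alternative settings. The Pcsk6 difference of 4.68 ± 1.10 (BH-adjusted p = 0.0283) was lost in 11 of the 18, with a BH-adjusted p of up to 0.185 without uninjured Gli1+ replicate 1. Bsg (1.78 ± 0.32, BH-adjusted p = 0.00941) and Thbs2 (-1.58 ± 0.32, 0.0158) had values of 0.0516 and 0.0581 without uninjured Gli1+ replicate 1, and of 0.0617 and 0.0735 with only the groups compared.

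After BDL 1 of these genes, Serpine2 (protease nexin 1, an inhibitor of plasminogen activators), was higher in Gli1+ cells and 2 were lower, Itgb3 and Lrp1 (the receptor that takes up MMP and TIMP complexes), where 6.8% of all genes were called. Lrp1 was at 286 and 460.1 CPM in Gli1+ and 1553 and 1574 in stellate libraries after BDL, a difference of -2.11 ± 0.35 (limma-trend, BH-adjusted p = 0.0103). Its BH-adjusted p was 0.0961 without Gli1+ BDL replicate 1 and 0.104 and 0.0968 without stellate BDL replicate 1 or 2. Itgb3 was at 13.3 and 11.4 CPM against 302 and 234, a difference of -4.32 ± 0.58 (BH-adjusted p = 0.00425; 0.0590 without Gli1+ BDL replicate 1 and 0.0706 without stellate BDL replicate 1). Serpine2 was at 154 and 160.2 CPM against 20.5 and 29.6, a difference of 2.63 ± 0.65 with a BH-adjusted p of 0.0490, which was kept in 7 of the 18 alternative settings. It was 0.180 to 0.289 without any 1 of the 4 BDL libraries, 0.0703 with TMM and 0.0647 with DESeq2 scaling, 0.0589 with a pseudocount of 0.25, 0.134 with no filter, 0.118 with edgeR, 0.0657 with limma-voom and 0.0510 with a replicate block. No gene of this list was called with BDL in Gli1+ cells.

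The genes whose levels were most like those of a called member, among 8086 genes with a mean of at least 20 CPM, are given by Pearson's r of log2(CPM + 1) over the 8 libraries, as a description: the libraries share 4 groups, so that any gene that differs between groups can score high. For Timp1 they were Col5a2 (r = 0.98), Serpina3n and Cenpf, and for Timp2 Bmpr1a (0.99), Muc3 and S100g. For Timp3 they were Drosha (0.98), Pts and Cldn2, and for Mmp3 Josd2 (0.98), Hsbp1 and Lrrc17. For Mmp23 they were Gfpt2 (0.98), Mcm4 and Tm2d1. For Mmp7 they were Serinc2 (r = 0.998), St14 and Fxyd3, of which St14 encodes matriptase, a membrane serine protease of epithelia.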

How the data were processed

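The authors deposited CPM per gene and library (called normalized counts per the file headers; each column sums to 1000000). Per the submitters' processing notes, which give no roles, FastQC, STAR 2.5.2b, featureCounts, DESeq2 and mm10 were used. The sources used here do not give the strand setting, the annotation release or the handling of multiply mapped reads, so overlapping genes and paralogs are uncertain. Values were whole multiples of 1 read within 0.1 read, which gave whole reads (11261775 to 19180370 per library). Of 30395 identifiers, 30214 matched GENCODE vM21 (GRCm38).

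Testing was by limma-trend (R 4.3.3, limma 3.58.1) of log2(CPM + 1), a scale that understates changes of low genes. The model had 4 group means, used all 8 libraries and left 4 residual degrees of freedom. A gene was tested if 2 or more libraries reached 1 CPM (16446 genes), with BH adjustment over all of them. The fit was also run on simulated counts with the same fixed spread for every gene, which is not the spread of these libraries. Alternatives were pseudocounts of 0.25 and 5, no filter, TMM and DESeq2 scaling, a replicate block, only the groups compared, edgeR 4.0.16, DESeq2 1.42.0 and limma-voom on whole reads, and each library left out. The balance used exon union lengths. Counting intervals (95%) and floors cover counting error only, since reads carried no molecular identifiers. Promoter windows were matched by symbol: 8 of 10 members had one.

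The members and gene lists were chosen with earlier results of these data known. All members were named in every comparison. Listed genes were named where called, with up to 4 per list of highest mean CPM, and likeness named the 3 genes of highest r. Cell type markers were given as sums. Mmp16, Mmp27, Reck, Plg and the single cholangiocyte, mesothelial and portal fibroblast markers were named after their values were seen.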

Additional observations from a re-analysis of the deposited data

Results flagged for a closer look

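Plat, tissue plasminogen activator, was called for a different response to BDL in the 2 populations. It was higher after BDL in stellate cells, from 0.0612 and 0.104 (3 reads over the group) to 85.9 and 167 CPM. In Gli1+ cells it stood at 238 and 177 before and 195 and 138 CPM after BDL. The difference of the responses, Gli1+ minus stellate, was -7.12 ± 0.64 on the log2 scale (limma-trend, BH-adjusted p = 0.0175). This call was kept in 7 of its 17 alternatives, with a BH-adjusted p of up to 0.475 (limma-voom). Without any 1 of the Gli1+ or injured stellate libraries its BH-adjusted p was 0.158 to 0.409. It was the 1 result that met a rule for a closer look, and groups of 2 libraries are too small to look for outlying samples.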

How the results depend on the processing

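Of 781 alternative values for the members' fold changes, 730 kept their direction and their side of the threshold, 32 lost a call, 2 gained one and 17 reversed, each reversal being an uncalled value with 1 library left out. Of the 10 members, 6 were called between uninjured populations and 3 to 6 when a library was left out (3 without uninjured Gli1+ replicate 1: Timp1, Mmp7, Mmp23). After BDL 2 were called, 1 with no filter, edgeR or limma-voom and 1 to 2 when a library was left out. For BDL in Gli1+ cells 0 were called, 1 by DESeq2 and 0 when any library was left out. For BDL in stellate cells 1 was called, 0 with no filter, only the groups compared, edgeR or limma-voom, and 0 to 1 when a library was left out. For the difference of responses 0 were called, 1 by DESeq2 and 0 when any library was left out. The causes were not tested.

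The balance differences (log2) moved as follows. Without Timp1 they were 0.0107 between uninjured populations, -1.18 for BDL in Gli1+ cells and -0.20 in stellate cells. Without Mmp7 they were 0.88 after BDL, 1.31 for BDL in Gli1+ cells and -0.0155 for the difference of responses (main value -1.18; -1.84 to -0.52 with a library left out). With CPM sums they were 0.23 after BDL, 0.38 for BDL in stellate cells and -0.47 for the difference, and with means of log2 values 0.84 for BDL in Gli1+ cells.

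Leaving out 1 library in turn gave these ranges (log2) for the results that reversed. For BDL in stellate cells they were -0.0943 to 0.76 for Timp3 (reversed without uninjured stellate replicate 1), -0.31 to 1.04 for Mmp2 (without uninjured stellate replicate 1 or stellate BDL replicate 1) and -0.0397 to 2.60 for Mmp3 (without stellate BDL replicate 2). For BDL in Gli1+ cells they were -0.60 to 0.43 for Mmp2 (without uninjured Gli1+ replicate 1 or Gli1+ BDL replicate 2) and -0.0194 to 0.23 for Mmp14 (without uninjured Gli1+ replicate 2). Between populations after BDL they were -1.07 to 0.19 for Mmp13 (without Gli1+ BDL replicate 2) and -0.0762 to 0.81 for Mmp23 (without Gli1+ BDL replicate 1). For the difference of responses they were -0.36 to 0.50 for Timp3 (without 1 of 4 libraries), -1.12 to 0.22 for Mmp2 and -0.27 to 0.0653 for Mmp14 (each without 1 of 2 libraries).

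Over all genes tested, limma-trend called 37 with BDL in stellate cells, edgeR 62, DESeq2 1023 and limma-voom 0. For BDL in Gli1+ cells the counts were 0, 0, 412 and 0. Limma-trend called 49 genes for this comparison with a pseudocount of 5 and 127 with no filter. In stellate cells these settings gave 19 and 6. With a replicate block 6 members were called between uninjured populations, and 1566, 943, 0, 18 and 0 genes in the 5 comparisons. The difference of replicate 1 minus replicate 2, correlated over genes between groups, gave r of -0.112 to 0.112. These values cannot tell whether same-numbered libraries share an animal or a batch, which the labels do not give. The block changed no member's call; outside the members it lost those of Serpine2 after BDL (BH-adjusted p = 0.0510, limma) and of Plat for the difference of responses (0.0594). At this depth Mmp9 and Mmp13 could not be separated from a few reads.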

Other observations

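Several genes of the family or of its control differed widely between the 2 libraries of a group, and are given as values. Mmp16, a membrane-type protease, was at 15.5 and 0.285 CPM in uninjured Gli1+ libraries. Mmp27 was at 0 and 6.85 CPM there and at 5.63 and 0 in uninjured stellate libraries. Reck, a membrane inhibitor of MMPs, was at 128 and 7.25 CPM in uninjured Gli1+ libraries and 10.6 and 23.9 after BDL, while the 4 stellate libraries held 119 to 240.1 CPM. Plg, the plasminogen gene expressed by hepatocytes, was at 6.69 and 167 CPM in Gli1+ libraries after BDL, where 9 hepatocyte markers summed to 2668 and 13996 CPM. These genes were chosen after their values were seen.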
